A study of Mus musculus with 12 samples.

Results

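The transcripts described here are 10 long noncoding RNAs (lncRNAs) known from neurons, namely Meg3, Rian, Mirg, Miat, Snhg11, Snhg14, Cdr1os, Mir124a-1hg, Dlx6os1 and Peg13. They were picked by mouse gene symbol among the 55471 Ensembl genes of the count table, where the 10 symbols match 11 gene IDs. Of these, 10 IDs had reads and passed the filter on low counts. The second ID of Dlx6os1, an annotated RNA of 146 nt, had 0 reads in all 12 libraries. It overlaps an exon of the first Dlx6os1 ID on the same strand, so reads there may not have been assigned to it. Hippocampal cells of wild-type (WT) CD1 mouse embryos were taken at embryonic day 17 from litters of mixed sex and grown as primary neurons. At day in vitro (DIV) 7 all cultures received gapmers in lipid nanoparticles, and RNA was collected at DIV 10. A gapmer is a single-stranded antisense oligonucleotide that lets RNase H cut the RNA it pairs with. The control group (6 libraries) received a negative control gapmer, and the Neuid KD group (6 libraries) received a gapmer against Neuid (Gm10419), another neuronal lncRNA. The labels do not say whether the libraries of a group came from separate cultures, so p-values measure the spread between libraries, which may be technical. The study's figure of Neuid knockdown in the RNA-seq samples states an n below 6.

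Several of these lncRNAs lie in imprinted domains, stretches of chromosome in which a gene is active on the copy from the mother or on the copy from the father. Meg3, Rian and Mirg are transcribed from the maternal copy of the Dlk1-Dio3 domain and carry small RNAs in their introns and exons. Snhg14 and Peg13 are active on the paternal copy, Snhg14 across the snoRNA clusters and the antisense strand of Ube3a, and Peg13 from an intron of Trappc9, beside Kcnk9. The others have varied roles: Mir124a-1hg is a precursor of miR-124, a microRNA of neurons that represses genes of non-neuronal cells, Dlx6os1 (also called Evf2) belongs to the locus that specifies forebrain interneurons, Miat is a nuclear RNA bound by splicing factors, Snhg11 is a snoRNA host gene of neurons, and the Cdr1os locus gives rise to the circular RNA Cdr1as.

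Sequences encoded in these genes show what the host transcripts carry. RefSeq (GRCm38.p6) places 26 mature miRNAs from 14 genes inside Mirg, 6 from 3 genes inside Rian and 3 from 2 genes inside Meg3, on the same strand. The 26 of Mirg have 25 different seeds, the bases 2 to 8 that pair with targets, here in capitals. Different seeds can still be alike, as are GGUUACC of miR-409-5p and GGUUGUC of miR-410-5p to the GGUUGCC of the pair that shares a seed. That pair is shown first, followed by miR-134-5p, a miRNA of dendrites, miR-410-3p, miR-370-3p of Rian and miR-770-5p of Meg3 as examples.
mmu-miR-453: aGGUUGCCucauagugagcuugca
mmu-miR-496a-5p: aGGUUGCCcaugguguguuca
mmu-miR-134-5p: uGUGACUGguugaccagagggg
mmu-miR-410-3p: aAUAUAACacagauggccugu
mmu-miR-370-3p: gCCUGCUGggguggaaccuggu
mmu-miR-770-5p: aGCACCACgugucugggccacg
Of these, miR-134-5p lies at chr12:109734145-109734166, miR-410-3p at chr12:109743764-109743784, miR-370-3p at chr12:109618305-109618326 and miR-770-5p at chr12:109563710-109563731, all on the plus strand.

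Cdr1os stands out by a different sequence feature, its matches to the seed of miR-7. Both miR-7 forms share this seed, again in capitals.
mmu-miR-7a-5p: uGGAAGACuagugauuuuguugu
mmu-miR-7b-5p: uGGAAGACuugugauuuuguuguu
The complement of the seed, GTCTTCC, occurred 125 times on the sense strand of the longest annotated Cdr1os transcript (19658 nt), which is 6.36 matches per kb. Over all 141767 annotated mouse transcripts it occurred 0.0969 times per kb, and 13.8% of transcripts held at least 1 match. The longest transcripts of Snhg11, Meg3 and Rian held 2 matches each, those of Miat and Dlx6os1 held 1 each, and those of Snhg14, Mirg, Mir124a-1hg and Peg13 held 0. A match of these letters is a description of the annotated sequence and not evidence of binding.

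The counts ranged from 18002585 to 30914714 reads per control library and from 11152556 to 30573480 per Neuid KD library. Neuid itself was at 28.4 ± 2.03 CPM (the CPM unit is reads scaled to library size) with the control gapmer and 8.05 ± 1.13 CPM with the Neuid gapmer (SD, n = 6 each), or -1.81 on the log2 scale (SE 0.0845, adjusted p = 1.3e-10, edgeR's quasi-likelihood fit), so each library matched its label. Reads on 1780 chemosensory receptor genes, which serve here as a measure of background reads, summed to between 26.0 and 653 CPM, with 7 libraries above 100 CPM (4 control, 3 Neuid KD) and 5 below (2 control, 3 Neuid KD). If these background reads lay evenly over exons, they would account for at most 5.92% of the reads of Dlx6os1, the least abundant of the lncRNAs, in any library, and for at most 3.82% of those of any other. The library Neuid KD 1 stood apart: it had the fewest reads of the 12 and the lowest summed level of the 10 lncRNAs, 1834 CPM against 2665 to 2972 CPM in the other 11, and it was the lowest of all 12 libraries for 9 of the 10. It also had the lowest summed level of 19 shared neuron markers, 9984 CPM against 10087 to 11862 CPM, and of Malat1, 4690 CPM, where the next library had 4698 CPM. Where leaving it out changed a call among the 10 lncRNAs or the counts of a gene list, both values are given.

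Of the 10 lncRNAs, 2 were lower in Neuid KD at an adjusted p under 0.05, namely Peg13 and Mir124a-1hg, and 0 were higher. Among all 19578 genes tested, 2.42% were called lower and 6.31% higher, or 473 and 1235 genes. With scaling to the upper quartile of the counts these were 1259 and 1049 genes. The fold change was negative for 9 of the 10 lncRNAs (for 8 without Neuid KD 1, for 10 in 4 of the 24 alternatives and for 9 in the other 19), as it was for 55.6% of all tested genes, and their median log2 fold change was -0.16 against -0.03 over all genes. The count of 0 for higher lncRNAs held with DESeq2, limma voom and each other alternative run, and at an unadjusted p under 0.05 it was also 0, against 5 lower, where 11.9% of all genes were higher and 6.96% lower. The changes were small, and no lncRNA reached an absolute log2 fold change of 0.5.

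**Figure D1:**
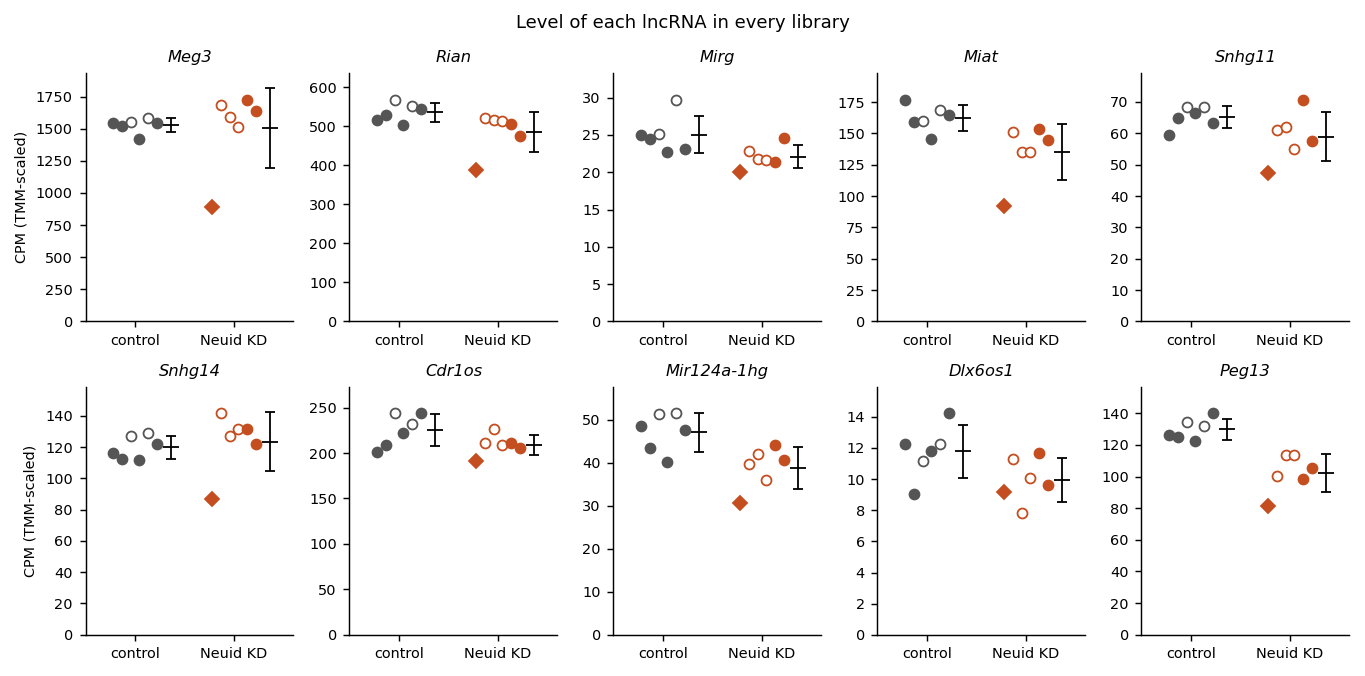
Level of each lncRNA in CPM (linear axis from 0) in the 6 control and 6 Neuid KD libraries, 1 point per library, with the mean and SD of each group at its right. Filled points are libraries above 100 CPM of background reads, open points those below, and the diamond is Neuid KD 1, which is the lowest point of 9 of the 10 panels; only for Peg13 do the groups not overlap.

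The sets of libraries differed in how many lncRNAs passed the test. Without Neuid KD 1, 3 of the 10 were called lower, where 3.94% of all genes tested were, the third being Miat. Within the 7 libraries with more background reads 1 was called lower (Peg13), where 0.867% of all genes were. Within the 5 libraries with fewer, 7 were called lower, where 4.52% of all genes were, and the 3 not called were Meg3, Snhg14 and Dlx6os1. The median log2 fold change of the 10 was -0.14 in the first of these background sets and -0.24 in the other. The difference between the sets was not tested. Neuid KD 1 is 1 of the 3 Neuid KD libraries of high background, and the set of low background holds only 2 control libraries. Background and the part of Neuid KD 1 therefore cannot be told apart in these sets.

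**Figure D2:**
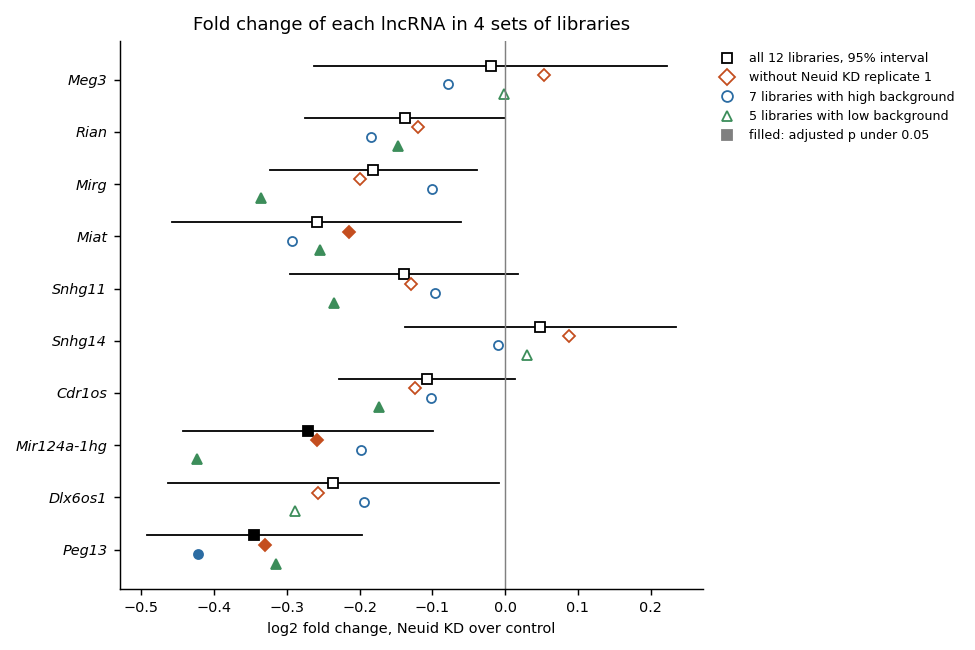
Log2 fold change of each lncRNA (horizontal axis, Neuid KD over control) in all 12 libraries, with its 95% interval, without Neuid KD 1, and within the libraries of high and of low background; filled symbols have an adjusted p under 0.05. Peg13 is filled in all 4 sets and lies between -0.42 and -0.32, and Meg3 and Snhg14 lie around 0 in each.

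Peg13 showed the clearest difference of the 10. This unspliced RNA of 4725 nt (ENSMUSG00000106847, chromosome 15, 72805600 to 72810324, minus strand, GRCm38) had a lowest, median and highest value of 122, 129 and 140 CPM in control and of 81.5, 103 and 114 CPM in Neuid KD. Every Neuid KD library was thus below every control library, as was the case in either direction for 5.7% of all genes tested. The level left was 78.7% of control (95% interval 71.1 to 87.2%), with a log2 fold change of -0.35 (SE 0.0699, adjusted p = 0.00332, edgeR's quasi-likelihood test). Peg13 was called lower with each of the 12 libraries left out in turn, and its adjusted p lay between 1.2e-07 and 0.0739 over all alternatives. The highest of these came from the test of all genes with at least 1 read, the only alternative in which it passed 0.05.

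The genes around Peg13 moved in both directions. Kcnk9, the neighbour that codes for a potassium channel and is active on the maternal copy in brain, was lower, from 59.6, 66.0 and 82.8 CPM (lowest, median and highest) in control to 28.5, 35.9 and 40.1 CPM in Neuid KD. All 6 Neuid KD values lay below the 6 control values. The log2 fold change of Kcnk9 was -0.97 (SE 0.0888, adjusted p = 6.8e-07), and it was -0.96 without Neuid KD 1, -1.04 within the 7 libraries of high and -0.89 within the 5 of low background, called in each. Trappc9, which codes for a subunit of a vesicle-tethering complex and has Peg13 in an intron on the same strand, was higher, from 56.9 ± 4.06 to 66.6 ± 5.75 CPM (SD, n = 6 each, log2 fold change 0.23, adjusted p = 0.0291). Its groups overlapped, and the call of Trappc9 was lost within the libraries of high and of low background (adjusted p = 0.25 and 0.096). Over the 8 other fits made for these neighbours, the adjusted p of Trappc9 was between 0.00167 and 0.25 and that of Kcnk9 was at most 5.8e-06. Chrac1, Ago2 and Ptk2, the other 3 of the 5 genes of this domain, did not pass the test, at log2 fold changes of 0.04, 0.06 and 0.09. Reads from unspliced Trappc9 RNA over the Peg13 stretch cannot be separated from reads of Peg13, so the Peg13 counts may hold some of them.

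**Figure D3:**
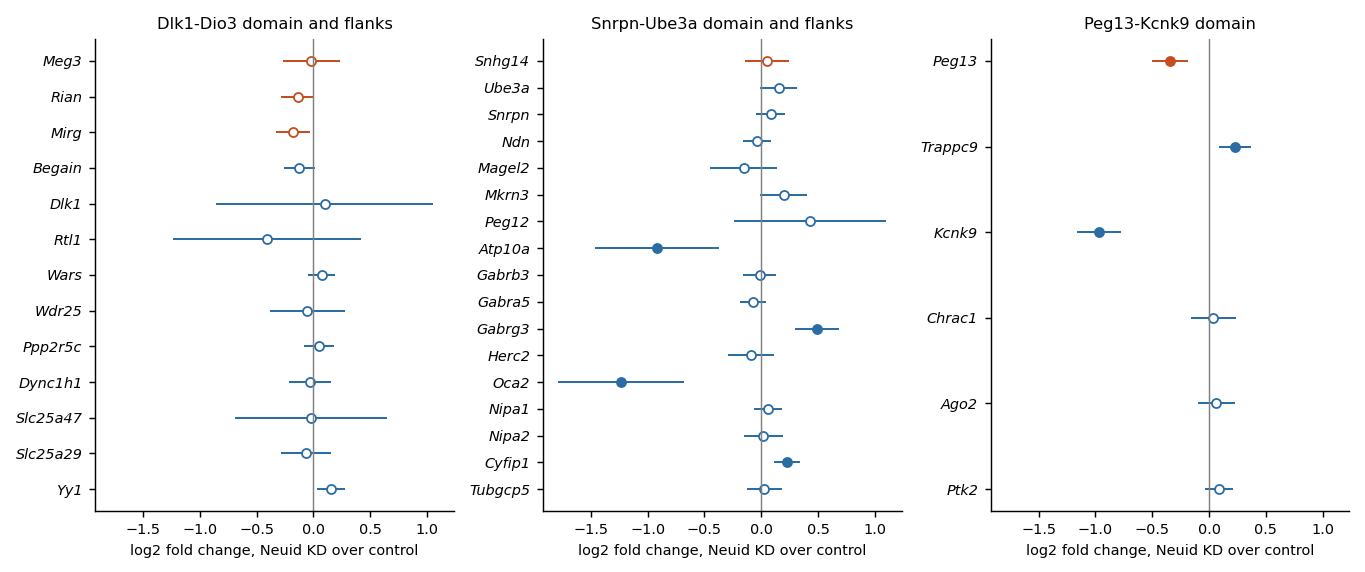
Log2 fold change (Neuid KD over control) with its 95% interval for the lncRNAs (orange) and the other tested genes (blue) of 3 imprinted domains and their flanks; filled points passed the test. In the Peg13-Kcnk9 domain Peg13 and Kcnk9 lie left of 0 and Trappc9 right of it, and in the Dlk1-Dio3 domain no point is filled.

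Mir124a-1hg, the host of miR-124 (ENSMUSG00000097545, chromosome 14, 64587331 to 64593961, plus strand), was the other lncRNA called lower. Its lowest, median and highest values were 40.0, 48.1 and 51.5 CPM in control and 30.6, 40.2 and 44.1 CPM in Neuid KD. The groups overlapped, with 3 Neuid KD libraries below every control library. The level left was 82.9% of control (95% interval 73.6 to 93.4%), with a log2 fold change of -0.27 (SE 0.0812, adjusted p = 0.0476, edgeR). This call was narrow: it was lost in 8 of the 12 fits that left out a library, those without control 1, 2, 3, 5 or 6 or without Neuid KD 2, 3 or 4, with adjusted p-values up to 0.15, and held without Neuid KD 1 (adjusted p = 0.0221). Over all alternatives its adjusted p was between 6.5e-05 and 0.556, and its log2 fold change was negative in each. The other tested host gene, Mir124-2hg, had 3.90 ± 0.59 CPM in control against 3.22 ± 0.58 CPM in Neuid KD (SD, n = 6 each) and did not pass the test (log2 fold change -0.28, adjusted p = 0.385). Of 5 tested neighbours on chromosome 14, 0 passed in either direction with edgeR or DESeq2, and 0 had an unadjusted p under 0.05.

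Genes that textbooks give as repressed by miR-124 were counted beside its host. Of 15 tested, 6 were higher and 0 were lower in Neuid KD with edgeR and with DESeq2 (7 and 0 at an unadjusted p under 0.05), and the median log2 fold change was 0.13 against -0.03 over all genes. Over all genes, edgeR called 6.31% higher and 2.42% lower, and 11.9% and 6.96% at an unadjusted p under 0.05. The 4 with the smallest adjusted p were Sox9 (log2 fold change 0.47), a transcription factor of progenitors and astrocytes, Actl6a (0.30), a chromatin remodelling subunit of progenitors, Vamp3 (0.31), a vesicle protein, and Itgb1 (0.24), an integrin. Ptbp1, the splicing repressor most often named in this context, was at 18.4 ± 2.18 and 17.2 ± 1.1 CPM (SD, n = 6 each) and did not pass the test. Without Neuid KD 1 the counts were again 6 and 0, but within the libraries of high background they were 1 and 0, and within those of low background 3 and 1. Over all genes, 651 of 23644 were higher and 205 lower within high background, and 1110 of 17665 higher and 799 lower within low background. Sox9 is also an astrocyte marker, and all 12 astrocyte markers were higher in Neuid KD, from a summed 1941 to 2463 CPM in control to 4493 to 5033 CPM in Neuid KD. The part of these markers in the counts of this list was not tested, and mature miR-124 was not measured. In RNA from whole cultures, fewer cells of a type and less RNA per cell cannot be told apart.

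The 3 lncRNAs of the Dlk1-Dio3 domain did not pass the test in the 12 libraries. They lie in 1 row on the plus strand of chromosome 12, Meg3 at 109541001 to 109571726, Rian at 109603940 to 109661716 and Mirg at 109729764 to 109749460. Meg3, the most abundant, was at 1419, 1547 and 1583 CPM in control (lowest, median and highest) and at 887, 1613 and 1724 CPM in Neuid KD. The 887 CPM came from Neuid KD 1, and the next Neuid KD library was at 1516 CPM, within the range of control. The log2 fold change of Meg3 was -0.02 (95% interval -0.26 to 0.22, adjusted p = 0.958) and was 0.05 without Neuid KD 1 (adjusted p = 0.427).

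Rian, the snoRNA host of the domain, was at 503, 536 and 567 CPM in control and at 387, 510 and 520 CPM in Neuid KD, with overlapping groups. Its log2 fold change was -0.14 (SE 0.0652, adjusted p = 0.266) and -0.12 without Neuid KD 1 (adjusted p = 0.0633). Mirg, the host of the miRNA cluster, was at 22.7, 24.8 and 29.7 CPM in control and at 20.04, 21.7 and 24.6 CPM in Neuid KD. All 6 Neuid KD libraries lay below the control median, and the highest lay just below it. The log2 fold change of Mirg was -0.18 (SE 0.0674, adjusted p = 0.124), and it passed the test without Neuid KD 6 (log2 fold change -0.25, adjusted p = 0.0393). Within the 5 libraries of low background Rian and Mirg were called lower (log2 fold changes -0.15 and -0.34, adjusted p = 0.00155 and 0.0127), which was not so within the 7 of high background (-0.18 and -0.10, adjusted p = 0.64 and 0.911). Over all alternatives the adjusted p was between 0.00155 and 0.875 for Rian and between 0.0127 and 0.911 for Mirg.

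Of the 10 other genes of the domain and its flanks that were tested, 0 passed in either direction with edgeR, and 1 had an unadjusted p under 0.05. It was Yy1, a zinc-finger factor, whose change was 0.16 on the log2 scale (adjusted p = 0.0895) and which DESeq2 called higher (adjusted p = 0.048, and 0.0237 to 0.927 over the 8 other fits). Begain, which codes for a postsynaptic protein, followed at -0.12 (adjusted p = 0.288). With upper-quartile scaling Begain was called lower (adjusted p = 0.00865, the lowest of 8 other fits, up to 0.763). Rtl1, a gene active on the paternal copy, had 4.21 ± 2.63 CPM in control against 3.22 ± 1.55 CPM in Neuid KD (SD, n = 6 each).

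Snhg14 (chromosome 7, 59307924 to 59975759, minus strand), which runs through the snoRNA clusters of the Snrpn-Ube3a domain, was the only lncRNA with a positive fold change in the 12 libraries, and its sign was negative in 4 of the 24 alternatives, with log2 fold changes from -0.01 to 0.09 over all of them. Its lowest, median and highest values were 112, 119 and 129 CPM in control and 87.0, 129 and 142 CPM in Neuid KD. The 87.0 CPM came from Neuid KD 1, and the other 5 Neuid KD libraries were at 122 CPM or more. Snhg14 thus had a log2 fold change of 0.05 (95% interval -0.14 to 0.23, adjusted p = 0.863), and it was 0.09 without Neuid KD 1 (adjusted p = 0.333). Ube3a, the ubiquitin ligase that Snhg14 overlaps on the opposite strand, had 233 ± 23.1 CPM in control against 259 ± 23.0 CPM in Neuid KD (SD, n = 6 each, log2 fold change 0.15, adjusted p = 0.266). Exons of the pair overlap, and whether strand was used in counting is not given in the sources used here, so reads of Snhg14 and Ube3a in that stretch may not have been told apart. Gm38393, annotated as a protein-coding gene of the same strand, also shares exon stretches with Snhg14. It had 44.2 ± 3.68 CPM in control against 44.2 ± 7.07 CPM in Neuid KD (SD, n = 6 each), and how reads in those stretches were assigned is not known.

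In the rest of that domain and its flanks, 2 of 16 tested genes were higher and 2 lower. Gabrg3, a GABA receptor subunit, was higher by 0.49 on the log2 scale (adjusted p = 0.00117), as was Cyfip1, a regulator of actin and translation, by 0.22 (adjusted p = 0.00621), both without overlap between the groups. Oca2, a pigment gene, was lower from 2.88 ± 0.746 to 1.24 ± 0.397 CPM (SD, n = 6 each) and Atp10a, a lipid flippase, from 3.27 ± 1.02 to 1.75 ± 0.612 CPM, at adjusted p-values of 0.00442 and 0.0306 from edgeR. Within the 7 libraries of high background 0 of these genes were called, and within the 5 of low background 2 were higher and 3 lower.

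Miat (chromosome 5, 112213228 to 112229395, minus strand) had the third most negative fold change of the 10. Its lowest, median and highest values were 146, 162 and 177 CPM in control and 92.5, 140 and 154 CPM in Neuid KD. Apart from Neuid KD 1 at 92.5 CPM, the Neuid KD libraries lay between 135 and 154 CPM, and their range met that of control only in its lowest part. The log2 fold change of Miat was -0.26 (SE 0.0938, adjusted p = 0.112), and without Neuid KD 1 it was smaller, at -0.21, but passed the test (adjusted p = 0.0105). It was called lower in 8 of 24 alternatives, among them DESeq2 and the fit with the background as a covariate, with adjusted p-values from 0.000302 to 0.499 over all of them. Of the 6 tested neighbours of Miat, Sez6l, which codes for a membrane protein of neurons, was higher (288 ± 25.3 to 359 ± 48.0 CPM, SD, n = 6 each, log2 fold change 0.32, adjusted p = 0.0254) and 0 were lower. That call was lost within the 7 libraries of high background (adjusted p = 0.266 for Sez6l, the highest of the 8 other fits). A gene of the opposite strand, Gm26953, overlaps Miat and had 1.26 ± 0.913 CPM in control (SD, n = 6).

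Snhg11 (chromosome 2, 158375638 to 158386145, plus strand) is listed as protein coding in the annotation used here. It was at 59.3, 65.7 and 68.4 CPM in control and at 47.4, 59.3 and 70.7 CPM in Neuid KD. The groups overlapped widely, since Neuid KD 5 was the highest of all 12 libraries and Neuid KD 1 the lowest. Its change was -0.14 on the log2 scale (SE 0.0743, adjusted p = 0.353) and -0.13 without Neuid KD 1 (adjusted p = 0.237). Snhg11 was called lower only within the 5 libraries of low background (log2 fold change -0.24, adjusted p = 0.0078), and its adjusted p was between 0.0078 and 0.925 over all alternatives. Of 7 tested neighbours, 0 passed in either direction with edgeR or DESeq2, and 3 had an unadjusted p under 0.05. These were the helicase gene Dhx35 (log2 fold change 0.19), the chromatin gene Actr5 (-0.28) and Slc32a1, the vesicular GABA transporter, which was higher.

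Cdr1os (chromosome X, 61116378 to 61292484, plus strand), listed in the annotation as C230004F18Rik, was at 202, 227 and 244 CPM in control and at 192, 210 and 227 CPM in Neuid KD. The Neuid KD values lay in the lower part of the control range, with only Neuid KD 1 outside it. On the log2 scale the change was -0.11 (SE 0.0572, adjusted p = 0.349) and -0.12 without Neuid KD 1 (adjusted p = 0.161). It was called lower in 5 alternatives, with adjusted p-values from 0.00514 to 0.909 over all 24. Gene counts do not separate the linear RNA with the many miR-7 seed matches from circular RNA of the same exons, so no value can be given for Cdr1as. Cdr1, the gene on the opposite strand whose exon overlaps, had 2.55 ± 0.359 CPM in control against 2.35 ± 0.365 CPM in Neuid KD (SD, n = 6 each, adjusted p = 0.823). Sox3, a transcription factor of neural progenitors farther along the chromosome, was the only one of 4 tested neighbours to pass (log2 fold change 0.53, adjusted p = 0.0194, and 0.00207 to 0.174 over the 8 other fits).

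Dlx6os1 (ENSMUSG00000090063, chromosome 6, 6820189 to 6871592, minus strand) was the least abundant of the 10, at 9.01, 12.0 and 14.2 CPM in control and at 7.81, 9.85 and 11.6 CPM in Neuid KD. The groups overlapped, and the lowest library was Neuid KD 3 rather than Neuid KD 1. Dlx6os1 had a log2 fold change of -0.24 (95% interval -0.46 to -0.01, adjusted p = 0.242), and it was called in none of the 24 alternatives, whose adjusted p-values ranged from 0.0766 to 0.782. Of 12 tested genes of the Dlx5-Dlx6 locus and of forebrain interneurons 0 passed in either direction with edgeR, and DESeq2 called 1 lower. At an unadjusted p under 0.05 from edgeR, 1 was higher, namely Slc32a1, and 1 was lower. Dlx6, which overlaps on the opposite strand, had 1.21 ± 0.69 CPM in control against 0.811 ± 0.441 CPM in Neuid KD (SD, n = 6 each), and Gad2, which makes GABA, was at 61.4 ± 5.12 and 56.1 ± 2.41 CPM.

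Per kb of exon, the levels of the 10 lncRNAs in control spanned from 84.5 ± 3.13 CPM per kb for Meg3 to 2.28 ± 0.329 for Dlx6os1 (SD, n = 6 each). Rian at 29.3 and Peg13 at 27.5 CPM per kb came next, and their ranges over the control libraries overlapped. Miat followed at 17.5 CPM per kb, then Mir124a-1hg at 9.79 and Cdr1os at 9.37, whose ranges overlapped too. Snhg11 (7.64), Snhg14 (4.59), Mirg (3.43) and Dlx6os1 each lay apart from its neighbours in this order. Meg3 thus exceeded 98.8% of all tested genes by this level, and Dlx6os1 51.7%. The order rests on the exon length: with the longest transcript in place of all exons Rian was at 66.1 and Snhg14 at 17.5 CPM per kb, against 29.3 and 4.59, and Snhg14 came before Mir124a-1hg, Cdr1os and Snhg11.

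**Figure D4:**
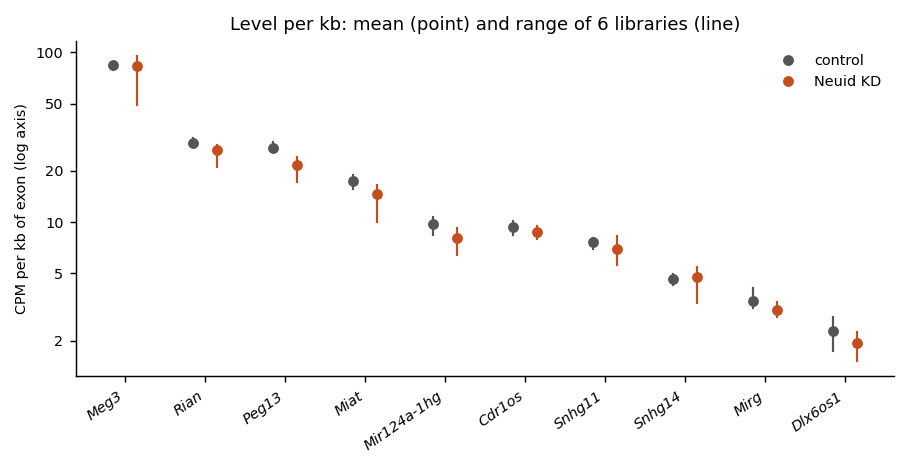
Level of each lncRNA in CPM per kb of exon on a log axis, with the mean of 6 libraries as a point and their lowest to highest value as a line, for control (grey) and Neuid KD (orange). Meg3 lies highest at 84.5 CPM per kb in control and Dlx6os1 lowest at 2.28, and the long lower lines of Meg3, Miat and Snhg14 in Neuid KD end at Neuid KD 1.

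With all 6 libraries, the spread was larger in Neuid KD than in control for several of them. The coefficient of variation of Meg3 was 3.7% in control and 20.7% in Neuid KD, that of Miat 6.46% and 16.5%, and that of Snhg14 6.25% and 15.4%. For Mirg and Cdr1os it was smaller in Neuid KD, at 7.02% against 9.93% and 5.36% against 7.85%. In Meg3, Miat and Snhg14 the Neuid KD 1 value lay far below the other 5. Over those 5 the coefficient of variation was 5% for Meg3, 6% for Miat and 5.53% for Snhg14, so that for Miat and Snhg14 it was then below that of control.

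Small RNA genes inside the lncRNAs had few reads. Of 208 snoRNA genes within Snhg14, 71 had reads, 17 were tested and 0 passed the test in either direction with edgeR or DESeq2 (0 at an unadjusted p under 0.05). The most abundant, Snord116l12, had 9.22 ± 1.04 CPM in control against 10.9 ± 3.01 CPM in Neuid KD (SD, n = 6 each, log2 fold change 0.26, adjusted p = 0.37). Of the 14 miRNA genes within Mirg 10 had reads and 2 were tested, miR-541 and miR-453, with adjusted p-values of 0.928 and 0.99. The 2 miRNA genes in exons of Mir124a-1hg and the 2 in exons of Meg3 had 0 reads. How reads on overlapping genes were counted is not given in the sources used here, so these 0 counts may not mean absent RNA. Reads on an intronic small RNA gene may come from the unspliced host transcript, and the mature small RNAs were not measured.

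Other groups of RNAs give the setting for these values. Of 25 widely expressed lncRNAs tested, 1 was higher and 1 lower (1 and 2 without Neuid KD 1), with a median log2 fold change of -0.11. Their fold change was negative for 18 of the 25, and at an unadjusted p under 0.05 from edgeR 1 was higher and 6 were lower. With upper-quartile scaling, and also with the background as covariate, 1 was called higher and 4 lower. Malat1, the abundant RNA of nuclear speckles, rose from 5106 (median) to 6462 CPM (log2 fold change 0.28, adjusted p = 0.0199), although Neuid KD 1 had the lowest value of all 12 libraries. Snhg12, a snoRNA host, fell (log2 fold change -0.34, adjusted p = 0.0256). Malat1 was not called within the libraries of high background (adjusted p = 0.366, the highest of the 8 other fits), and the adjusted p of Snhg12 over those fits lay between 0.00339 and 0.31. Of 6 other neuron-enriched lncRNAs with a human homolog, a list the study took from sorted neuronal nuclei, 0 passed in either direction, 1 had an unadjusted p under 0.05, DESeq2 called 1 lower, and the median was -0.10. Without Neuid KD 1, 1 of the 6 was called higher and 0 lower, and within the libraries of low background 1 was higher and 1 lower. Their summed level was 100 CPM in Neuid KD 1 and 134 to 163 CPM in the other libraries.

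Among 9 tested lncRNAs of neural progenitors and glia, 2 were higher and 0 lower, and without Neuid KD 1, where 10 were tested, 1 and 0. Mir9-3hg, a host of miR-9, rose from 17.9 ± 0.469 to 25.2 ± 1.91 CPM (SD, n = 6 each, log2 fold change 0.50, adjusted p = 5.7e-06), and Pantr1, a lncRNA of the developing cortex, by 0.27 on the log2 scale (adjusted p = 0.0442, and 0.00989 to 0.278 over the 8 other fits). The call of Pantr1 was lost without Neuid KD 1 (adjusted p = 0.165). Of 33 other imprinted genes tested, 3 were higher and 2 lower, and 3 and 4 without Neuid KD 1, where the call of Commd1 was lost (adjusted p = 0.139). Nnat, which codes for a membrane protein of neurons, rose by 0.24 on the log2 scale (adjusted p = 0.00179) and Grb10, a growth factor adaptor, fell by 0.31 (adjusted p = 0.00421). Airn, an antisense lncRNA, was higher by 0.47 (adjusted p = 0.013) and Commd1 by 0.23 (adjusted p = 0.0313). Over the 8 other fits the highest adjusted p was 0.163 for Nnat, 0.185 for Grb10, 0.568 for Airn and 0.576 for Commd1. Mest was lower in each of these 8 fits, with log2 fold changes from -0.41 to -0.28 and adjusted p-values of at most 0.043.

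The cell markers were counted to describe the cultures. Of 19 shared neuron markers 1 was higher (Nefm) and 1 lower (Elavl4), with a median log2 fold change of -0.01 and summed levels of 10087 to 11862 CPM in control and 9984 to 11856 CPM in Neuid KD. These neuron marker counts were 3 higher and 2 lower without Neuid KD 1, 2 and 5 within the libraries of low background, 0 and 0 within those of high background, and 1 and 5 with upper-quartile scaling (median -0.07). Of 10 markers of excitatory neurons 1 was higher and 2 lower, and of 13 of inhibitory neurons 1 was higher (Erbb4) and 0 lower (1 and 1 without Neuid KD 1). All 12 astrocyte markers were higher, with a median log2 fold change of 1.28, as were 2 of 6 markers of oligodendrocyte precursors, Olig1 and Olig2. Of the markers of oligodendrocytes, microglia, endothelial cells, and fibroblasts and mural cells, which summed to at most 33.2, 11.8, 21.0 and 51.5 CPM in any library, 18 were tested, and Mbp alone passed, being lower. The astrocyte counts were 12 of 12 without Neuid KD 1 and within each background set. Whether the larger astrocyte signal has a part in the values of the 10 lncRNAs was not tested. When the counts were scaled to the neuron markers, 5 of the 10 were called lower, where 3.46% of all genes were, with a median log2 fold change of -0.17 against -0.04 over all genes.

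**Figure D5:**
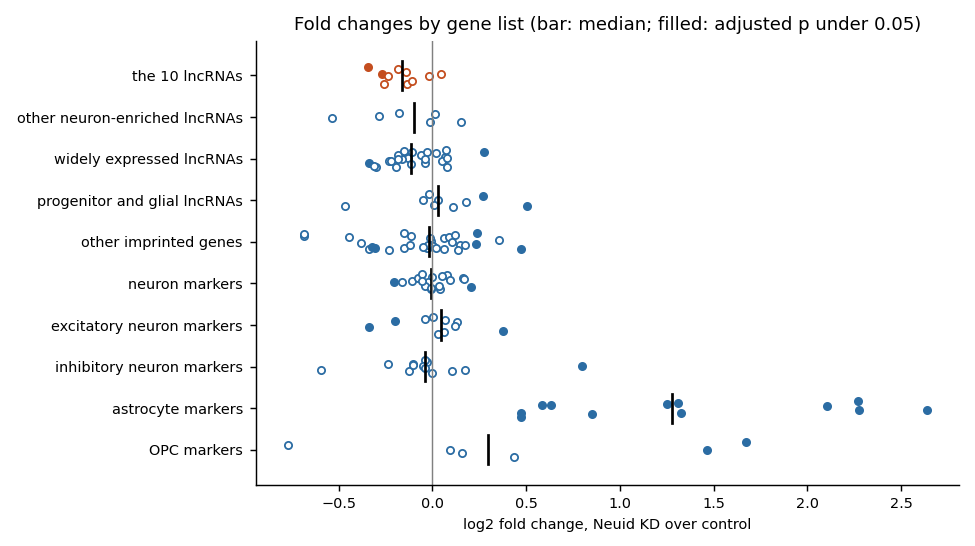
Log2 fold change (horizontal axis, Neuid KD over control) of every tested gene in 10 lists, 1 point per gene, filled where the adjusted p was under 0.05, with the median as a bar. The 10 lncRNAs (orange) lie between -0.35 and 0.05 with a median of -0.16, next to the widely expressed lncRNAs with a median of -0.11, and the astrocyte markers all lie to the right of 0.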

How the data were processed

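The study measured total RNA by sequencing in 12 libraries of mouse hippocampal cultures, 6 per group, and the group of each was taken from its title. The authors deposited counts, whole reads per Ensembl gene without normalization, in 1 table; per the study's methods the reads were aligned with STAR to mm10 (GRCm38) and counted with featureCounts, and the annotation release and the strand setting are not given in the sources used here. Symbols and positions came from GENCODE M21 (GRCm38), which named 55230 of 55471 genes, and Cdr1os was matched through a RefSeq synonym. Reads were scaled by TMM, genes were filtered with filterByExpr, which left 19578, and the groups were compared with the quasi-likelihood test of edgeR 4.0.16 (R 4.3.3) with Benjamini-Hochberg adjustment over all tested genes at 0.05, with group as the only term. This was checked on simulated data. DESeq2 1.42.0, limma 3.58.1 (voom), other scalings, RUVs factors (own code), the background as covariate or split at 100 CPM, the replicate block and each library left out were alternatives. Standard errors come from the F statistic. The reads behind each value ran from 109 (Dlx6os1) to 46433 (Meg3) per library. Precision also rests on the spread between libraries: the SE of the log2 fold change was largest for Meg3, at 0.114.

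The genes named are the 10 lncRNAs, the target, some of the genes overlapping them and, of each list, those called or with the smallest adjusted p, at most 4 a list. Beyond this, Ptbp1, Chrac1, Rtl1 and Mest were named after their values were seen. The 10 members, the lists and the background split were chosen with earlier results of these data known. Of the list symbols, Mir124a-2hg and Pnky had no match. Sequences were read from RefSeq tables and GENCODE transcripts; for Peg13, Mir124a-1hg and miR-124 none was printed. Figures were drawn with matplotlib.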

Additional observations from a re-analysis of the deposited data

Results flagged for a closer look

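In each group of 6 libraries, a value was picked out where the gap between the highest or lowest library and its nearest neighbour took more of the range of the group than Dixon's 95% value for 6 samples allows. This was checked in 22 groups, the 10 lncRNAs and Neuid in control and in Neuid KD, and chance picks out about 1 in 20 such groups. The lowest Neuid KD library was picked out for 4 lncRNAs, and in each case it was Neuid KD 1. Meg3 was at 887 CPM there against 1516 to 1724 CPM in the other 5, Rian at 387 against 475 to 520, Miat at 92.5 against 135 to 154 and Snhg14 at 87.0 against 122 to 142. In control, Meg3 was low in control 4, at 1419 CPM against 1523 to 1583 CPM, and Mirg was high in control 5, at 29.7 CPM against 22.7 to 25.2 CPM. Neuid KD 1 was also the library with the fewest reads, 11152556, and was among the 7 with the most background reads, at 604 CPM on chemosensory receptor genes. The part of depth and background in its low values was not tested.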

How the results depend on the processing

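The number of lncRNAs called lower, 2 in all 12 libraries, was 6 with upper-quartile scaling, 5 when scaled to neuron markers, 4 with the DESeq2 test, 6 and 5 with 1 and 2 RUVs factors, 5 with the background as covariate, 1 within the 7 libraries of high and 7 within the 5 of low background, 0 without a filter on low counts (48419 genes tested) and 0 where an absolute log2 fold change above 0.5 was required as well. It was 1 to 3 with each library left out in turn, and 2 with DESeq2 size factors, limma voom and the replicate block. No alternative called a lncRNA higher. Neuid was lower in all 24 alternatives run for it, with log2 fold changes from -1.93 to -1.74.

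The labels do not say whether replicate numbers pair the groups. The correlation of same-numbered libraries was between -0.64 and 0.77. For 2 of the 6 numbers, the control library correlated best with the Neuid KD library of its number. These were numbers 1 and 3, whose background reads were alike (653 and 604 CPM, 26.0 and 26.9 CPM). The correlation was negative for numbers 2, 4 and 5, whose background reads were not. A correlation that may follow background reads cannot tell whether the numbers mark pairs. The paired fit with the replicate block called 2 lncRNAs lower, Peg13 (adjusted p = 0.00177) and Mir124a-1hg (adjusted p = 0.0157).

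Over all genes, 473 were lower in the 12 libraries, 1259 with upper-quartile scaling, 677 when scaled to neuron markers, 1004 with DESeq2, 982 and 936 with the RUVs factors, 987 with the background as covariate, 780 without Neuid KD 1, 205 within high and 799 within low background and 229 without a filter. The causes were not tested. For Meg3, the 95% interval of the log2 fold change was -0.26 to 0.22, the widest of the 10, and -0.02 to 0.13 without Neuid KD 1.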
